A study of Homo sapiens with 6 samples.

Results

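Genes for cadherins, β-catenin, plakoglobin and armadillo proteins of the p120 family were compared between the α-Cat and Δα-Cat subclones of the human colorectal cancer cell line DLD-1. The 9 genes were taken by symbol: CDH1, CDH3, CDH4, CDH13, CDH17, CTNNB1, JUP, ARVCF and CTNND2. Of these, 6 had a usable row, against 22376 genes in the whole series. The row of ARVCF had lost its decimal points, and the platform annotation used here names no row for CDH4 or CDH13, so these 3 are not analysed here.

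The untreated cells spent 96 h in a 3D gel of collagen type I (1 mg/ml) before total RNA was put on Affymetrix arrays, with 3 arrays for each subclone. The labels name both as subclones of one line, give no allele or construct, and do not say whether the arrays of a subclone came from separate cultures. The p-values therefore rest on array-to-array spread that may be technical only. Each group carries a single subclone name, so no p-value here measures spread between subclones. A difference between the groups cannot be told apart from one between individual subclones. Levels are RMA values on a scale taken to be log2, and differences are Δα-Cat minus α-Cat.

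Classical cadherins hold epithelial cells together by binding the same cadherin on the neighbouring cell. Their cytoplasmic tail binds a protein of the p120 family near the membrane and either β-catenin or plakoglobin further along, and these in turn bind α-catenin, which reaches actin. β-catenin that is not at the membrane can enter the nucleus and act with TCF and LEF factors. DLD-1 cells carry a truncated APC, a part of the complex that marks β-catenin for destruction.

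The subclone names are not spelled out in the labels and were read as referring to α-catenin, so CTNNA1, which encodes αE-catenin, was the check of the labels. Its level was 6.55, 6.52 and 6.41 in the Δα-Cat arrays and 7.79, 7.68 and 7.71 in the α-Cat arrays (log2 change -1.23, SE 0.06, limma adjusted p = 0.00212). The Δα-Cat level was 2.35-fold lower, so the gene was lower in the arrays labelled Δα-Cat but still gave signal there.

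CDH17 and CDH1 were the members whose groups did not overlap, and both were higher in Δα-Cat, by 1.65-fold and 1.20-fold. For CDH3, CTNNB1, JUP and CTNND2 the fold was between 1.00 and 1.05. None of the 6 measured members passed the test over all transcript clusters, the array's units of a gene (limma, Benjamini-Hochberg adjusted p under 0.05). That test called 0.342% of all 65526 clusters, and 0.626% of genes when each is represented by 1 cluster. At an unadjusted p under 0.05 the members CDH17 and CDH1 passed, 2 of 6, where 13.1% of all genes did. Groups stood apart with Δα-Cat higher in 2 of 6 members, against 11.3% of all genes, and with Δα-Cat lower in 0 of 6, against 10% of all genes. The change was positive in all 6 measured members, where it was positive in 11142 of all 22376 genes. The changes of CDH3 and CTNND2 turned negative when certain single arrays were left out. The median change of the 6 was 0.07, where the median over all genes was -0.00045.

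**Figure D1:**
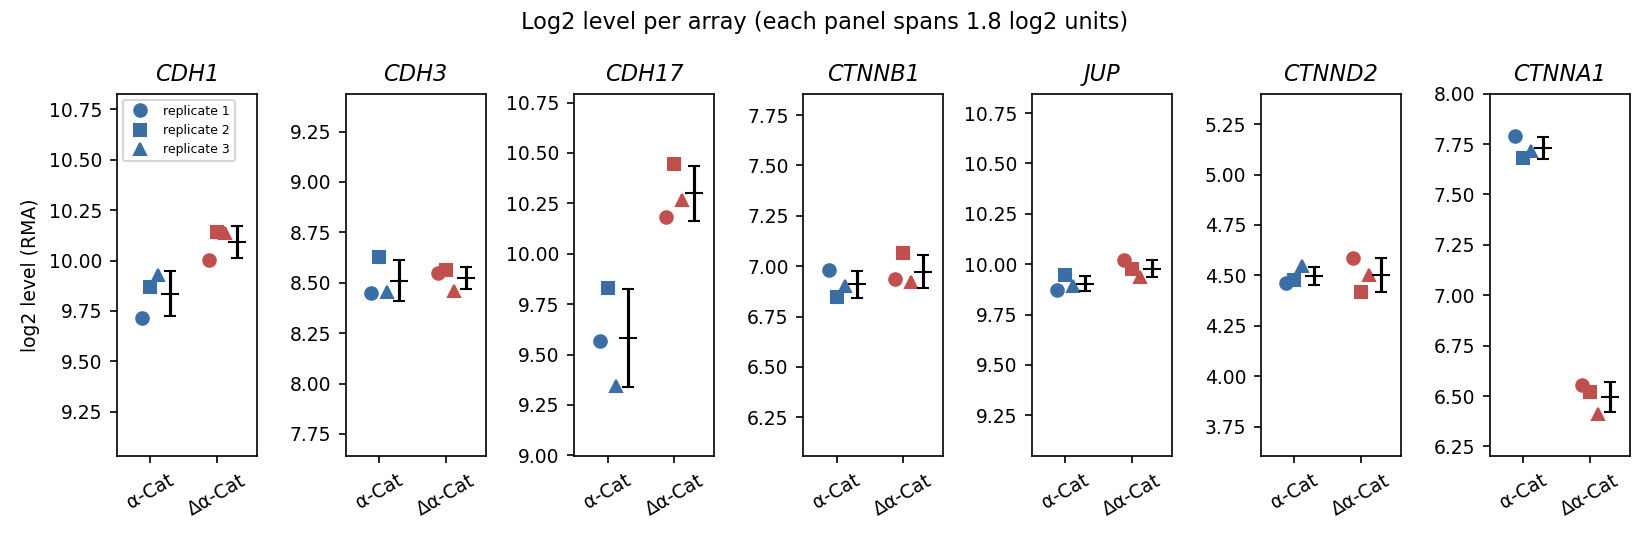
Log2 RMA level of each measured gene in each array, with CTNNA1 for comparison; symbols mark the replicate number, and the black bar is the group mean ± SD (n = 3). The groups stand apart for CDH1, CDH17 and CTNNA1 and overlap for CDH3, CTNNB1, JUP and CTNND2.

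CDH1 encodes E-cadherin, the main classical cadherin of epithelia. The log2 level was 10.0, 10.14 and 10.13 in Δα-Cat replicates 1, 2 and 3, and 9.71, 9.87 and 9.93 in the α-Cat replicates. All 3 Δα-Cat arrays lay above all 3 α-Cat arrays, and the gap between the nearest arrays of the 2 groups was narrower than the SD within either group. The group means were 10.09 ± 0.08 and 9.84 ± 0.11 (SD, n = 3 each). The change was 0.26 (SE 0.08; 95% confidence interval 0.08 to 0.44; limma adjusted p = 0.313), a fold of 1.20 with an interval from 1.06 to 1.35. With the lowest α-Cat array, replicate 1, left out, the change was 0.20 (limma adjusted p = 0.614).

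CDH3 encodes P-cadherin, a classical cadherin of basal epithelial layers that is expressed in many colorectal tumours. The level was 8.55, 8.56 and 8.46 in Δα-Cat and 8.45, 8.63 and 8.45 in α-Cat. The groups overlapped, and the highest array of the 6 was α-Cat replicate 2. The change was 0.014 (SE 0.07), and its 95% interval of -0.15 to 0.18 allows folds from 0.901 to 1.13. In the RefSeq gene order CDH3 and CDH1 are direct neighbours on chromosome 16, with 0 protein-coding genes between them.

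CDH17 encodes LI-cadherin, an intestinal cadherin with a short cytoplasmic tail that does not bind catenins. Its log2 level was 10.18, 10.45 and 10.27 in Δα-Cat and 9.57, 9.83 and 9.34 in α-Cat. Every Δα-Cat array lay above every α-Cat array, and in both groups replicate 2 was the highest. The means were 10.30 ± 0.13 and 9.58 ± 0.24 (SD, n = 3 each). This was the largest change among the 6 members, 0.72 (SE 0.13; 95% interval 0.41 to 1.03), a fold of 1.65 with an interval from 1.33 to 2.04. An increase of this size or more was found in 78 of 22376 genes, CDH17 included. The adjusted p was 0.101 with limma over all clusters, so CDH17 was not called. It was 0.0355 when only clusters with a single gene symbol were tested, a setting that called 2.92% of the clusters it tested. With any 1 array left out the change lay between 0.60 and 0.84.

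CTNNB1 encodes β-catenin, which links the cadherin tail to α-catenin and also acts in Wnt signalling. On the log2 scale it lay at 6.93, 7.07 and 6.92 in Δα-Cat and 6.98, 6.85 and 6.90 in α-Cat. The ranges overlapped, and α-Cat replicate 1 lay above 2 of the Δα-Cat arrays. The change was 0.06 (SE 0.07), with a 95% interval of -0.09 to 0.22, or folds from 0.938 to 1.16.

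JUP encodes plakoglobin, the paralogue of β-catenin that binds the same site on classical cadherins and also serves desmosomes. Its values were 10.02, 9.98 and 9.94 in Δα-Cat and 9.87, 9.95 and 9.89 in α-Cat. The lowest Δα-Cat array lay just under the highest α-Cat array, so the groups overlapped by 1 array. The change was 0.07 (SE 0.05), with a 95% interval of -0.05 to 0.20, or folds from 0.964 to 1.15.

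The intervals of CTNNB1 and JUP thus left room for changes of up to 1.16-fold and 1.15-fold upwards. The stretches of 250 bases before the transcription starts of this pair are shown because these paralogues supply the proteins that take the same place on the cadherin tail. They come from RefSeq on GRCh38.p14, at chr3:41199255-41199504 on the plus strand for CTNNB1 and chr17:41786712-41786961 on the minus strand for the first of 2 starts listed for JUP. In all, 5 of the 9 genes matched a RefSeq promoter by symbol. Each sequence runs 5′ to 3′ on the gene's strand. Capitals mark GGGCGG or its reverse complement CCGCCC, and CCAAT or its reverse complement ATTGG.
CTNNB1: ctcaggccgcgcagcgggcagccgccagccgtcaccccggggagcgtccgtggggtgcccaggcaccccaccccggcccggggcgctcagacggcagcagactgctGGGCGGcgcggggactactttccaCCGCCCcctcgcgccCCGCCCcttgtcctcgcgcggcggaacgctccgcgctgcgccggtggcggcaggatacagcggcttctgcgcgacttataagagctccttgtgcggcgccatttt
JUP: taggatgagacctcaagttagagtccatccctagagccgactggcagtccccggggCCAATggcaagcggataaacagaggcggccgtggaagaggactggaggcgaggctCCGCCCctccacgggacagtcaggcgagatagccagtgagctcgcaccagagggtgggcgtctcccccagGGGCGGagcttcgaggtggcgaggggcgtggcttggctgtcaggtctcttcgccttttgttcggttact

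CTNNB1 held 3 GGGCGG matches and 0 CCAAT matches, and JUP held 2 and 1, counted on both strands. Windows of the same length held GGGCGG in 42.6% and CCAAT in 32.0% of 35116 listed promoters. CAGGTG or its complement CACCTG, the E-box letters that SNAI and ZEB repressors bind, was found in 0 places in either window and in 17.5% of all promoters. GC content was 74.4% for CTNNB1 and 63.6% for JUP, where the median of all promoters was 58.0%. These matches are descriptions of the letters and were not tied to binding in these cells.

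CTNND2 encodes δ-catenin, a p120 relative best known from neurons. Its log2 level was 4.59, 4.42 and 4.50 in Δα-Cat and 4.46, 4.48 and 4.55 in α-Cat. The groups overlapped fully, and the change was 0.0068 (SE 0.06; 95% interval -0.14 to 0.16). The means of both groups, 4.50 ± 0.09 and 4.50 ± 0.04 (SD, n = 3 each), lay just above 4.43, the 95th percentile of 366 olfactory receptor clusters, a gene family used mainly in olfactory tissue. The other 5 measured members lay well above that level in every array.

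**Figure D2:**
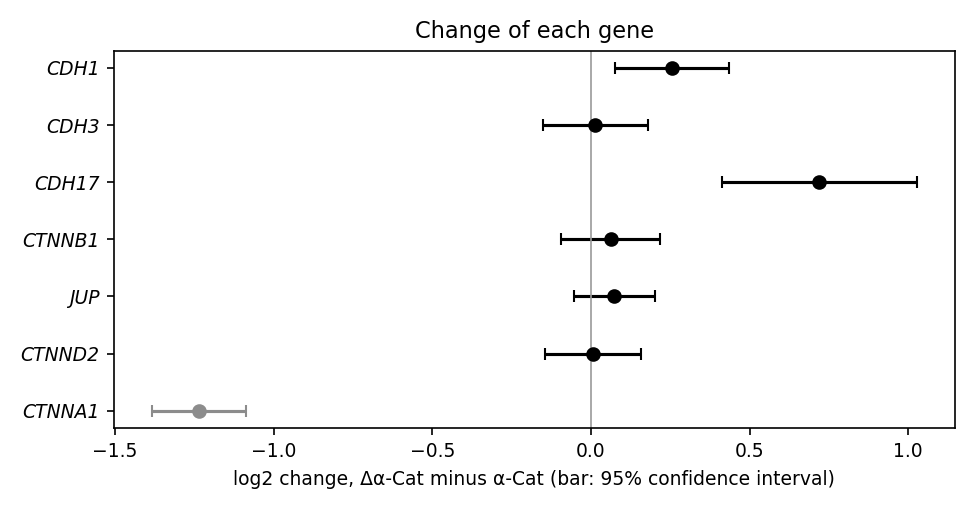
Log2 change (Δα-Cat minus α-Cat) of each measured gene with its 95% confidence interval from limma; CTNNA1 is in grey. The intervals of CDH1 and CDH17 lie above 0, and those of CDH3, CTNNB1, JUP and CTNND2 include it.

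Whether the genes of a pair changed unequally was tested on within-array differences of their log2 values, in which the scaling of an array cancels. The pairs of CDH1 with CDH3 and with CDH17 compare cadherins with each other, and CDH17 does not bind catenins. There were 7 pairs, each with a two-sided exact permutation test over the 6 arrays, whose smallest possible p is 0.1 (0.14 adjusted over the 7 pairs), so none could pass. The difference between the changes of CDH1 and CTNNA1 was 1.49, that of CTNNB1 and CTNNA1 1.30, and that of JUP and CTNNA1 1.31, with no overlap of the groups (exact p = 0.1 each). By replicate number, the smallest of these 9 differences was 1.19. The E-cadherin, β-catenin and plakoglobin messages were therefore higher relative to that of αE-catenin in each Δα-Cat array than in any α-Cat array. CTNNA1 itself changed by -1.23, against 0.26 for CDH1, 0.06 for CTNNB1 and 0.07 for JUP. These 3 differences thus mostly restate the fall of CTNNA1, the check of the labels.

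The change of CDH1 was 0.19 above that of CTNNB1, with groups apart (exact p = 0.1) and differences of 0.06 to 0.33 by replicate number. The difference between the changes of CDH1 and its neighbour CDH3 was 0.24, and the groups overlapped (exact p = 0.2), with differences of 0.19 to 0.34 by replicate number. The change of CDH1 minus that of CDH17 was -0.46, with groups apart (exact p = 0.1). CTNNB1 and JUP differed in change by -0.011, with overlapping groups (exact p = 0.8) and differences of -0.19 to 0.19 by replicate number.

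**Figure D3:**
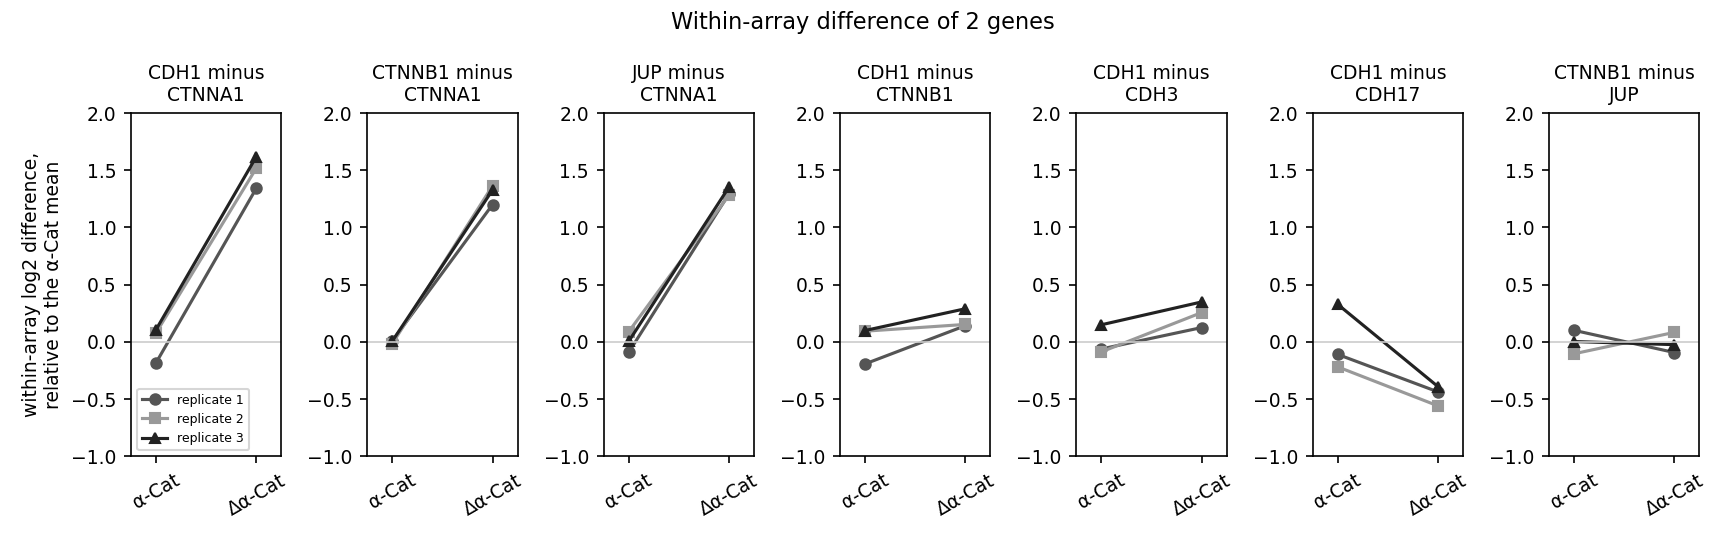
Within-array log2 difference of the 2 genes named above each panel, relative to its α-Cat mean; lines join arrays with the same replicate number. The 3 panels with CTNNA1 step up by 1.30 to 1.49, the CTNNB1 and JUP panel shows no common direction, and the remaining panels show smaller differences.

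Genes of the same pathway were read from lists. Of 18 other CDH genes, not all of them classical or type II cadherins, 0 passed, with a median change of 0.0096 and 1 at an unadjusted p under 0.05. In 11 of them the mean of both groups lay below 4.43, N-cadherin (CDH2) among them, with levels of 4.12, 4.03 and 3.96 in Δα-Cat and 3.99, 4.04 and 3.88 in α-Cat. CDH24, a type II cadherin, had the smallest p of the list. Its level was 6.93, 6.89 and 6.92 in Δα-Cat and 7.16, 7.15 and 7.31 in α-Cat, with groups apart and a change of -0.29 (SE 0.06; limma adjusted p = 0.152, and 0.0431 with single-symbol clusters only). Its direction was opposite to that of CDH1 and CDH17. Of 26 cadherin-related and protocadherin genes 0 passed, 0 had an unadjusted p under 0.05, and changes ran from -0.10 to 0.21. PCDH1, an epithelial protocadherin, had the smallest p there, with a change of 0.16 (SE 0.07, limma adjusted p = 0.529).

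Among 5 measured α-catenins and p120 relatives CTNNA1 fell and the other 4 did not pass. The median change of the list was -0.10, and 2 of the 5 had an unadjusted p under 0.05, against 13.1% of all genes. Groups stood apart with Δα-Cat lower in 3 of the 5, against 10% of all genes: CTNNA1 itself, the α-catenin-like gene CTNNAL1 and the p120 relative PKP4, the last 2 named after their values were seen. Their changes were -0.50 for CTNNAL1 (SE 0.12, limma adjusted p = 0.198) and -0.10 for PKP4. No usable cluster with a single symbol was available for CTNND1, which encodes p120-catenin itself.

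Genes for turnover, cleavage and phosphorylation of the cadherin complex held 1 call among 24 measured members, where 0.371% of all genes were called higher and 0.255% lower. The list was chosen with earlier results of these data known, so this count is no test of the list. PTPRK, a receptor tyrosine phosphatase reported to act on junction proteins, rose. Its level was 8.09, 8.58 and 8.25 in Δα-Cat and 7.28, 7.38 and 7.38 in α-Cat, a change of 0.96 (SE 0.12, limma adjusted p = 0.0423), or 1.95-fold. The groups were far apart, and the spread was wider in Δα-Cat. That call was lost with median centring (limma adjusted p = 0.0582), without Δα-Cat replicates 2 or 3 (0.0571 and 0.146), and without α-Cat replicates 1, 2 or 3 (0.188, 0.139 and 0.169). The list's median change was 0.03, and 6 of the 24 had an unadjusted p under 0.05, against 13.1% of all genes. With single-symbol clusters only, 3 members were called higher, where that setting called 2.92% of the clusters it tested in either direction. The other two, named after their values were seen, were the junction phosphatase PTPRM and RAB11A, a GTPase of recycling endosomes that carry E-cadherin. Their changes were 0.38 (SE 0.07, limma adjusted p = 0.0254) and 0.36 (SE 0.06, limma adjusted p = 0.0236), with the SE of the test over all clusters, in which the adjusted p was 0.0952 and 0.0907.

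In the list for the β-catenin destruction complex and its regulators 0 of 17 passed. An unadjusted p under 0.05 was found for 5 of the 17, against 13.1% of all genes. The change was positive in 15 of the 17, where it was positive in 11142 of all 22376 genes, and the median was 0.09. Groups stood apart with Δα-Cat higher in 6 of 17, against 11.3% of all genes. The 6 were CSNK1A1, FBXW11, TNKS, TNKS2, RNF146 and DVL3, all but CSNK1A1 named after their values were seen. For APC, AXIN1, AXIN2, GSK3A and GSK3B the groups overlapped, with changes of -0.009, 0.04, 0.12, 0.02 and 0.12. The list mixes parts of the complex with genes that regulate it, so its median gives no direction for the complex. CSNK1A1, the casein kinase that starts the phosphorylation of β-catenin, had levels of 8.04, 8.34 and 8.28 in Δα-Cat and 7.90, 7.84 and 7.96 in α-Cat. Its change was 0.32 (SE 0.09, limma adjusted p = 0.266). Of 16 partners of β-catenin in transcription 0 passed and 1 had an unadjusted p under 0.05. That gene, LEF1, a DNA-binding partner of β-catenin, read 6.80, 6.95 and 6.58 in Δα-Cat and 6.36, 6.32 and 6.18 in α-Cat. The groups stood apart with a change of 0.49 (SE 0.10; limma adjusted p = 0.14, and 0.046 with single-symbol clusters only). The list's median change was 0.02.

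No repressor of CDH1 passed among 11 measured, with a median change of 0.014 and 1 unadjusted p under 0.05. SNAI2, a zinc finger repressor of CDH1, had a change of 0.19 (SE 0.07, limma adjusted p = 0.406), and its mean lay below 4.43 in both groups, at 4.04 and 3.85. In 5 of the 11, SNAI2 included, both group means were under that level. Of 4 measured intestinal transcription factors linked to CDH17, 0 passed and 1 had an unadjusted p under 0.05. GATA6 had the smallest p, with a change of -0.16 (SE 0.07, limma adjusted p = 0.501), and CDX2, an activator of CDH17, read 7.07, 7.13 and 6.97 in Δα-Cat and 6.87, 7.22 and 6.75 in α-Cat. The CDX2 groups overlapped.

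**Figure D4:**
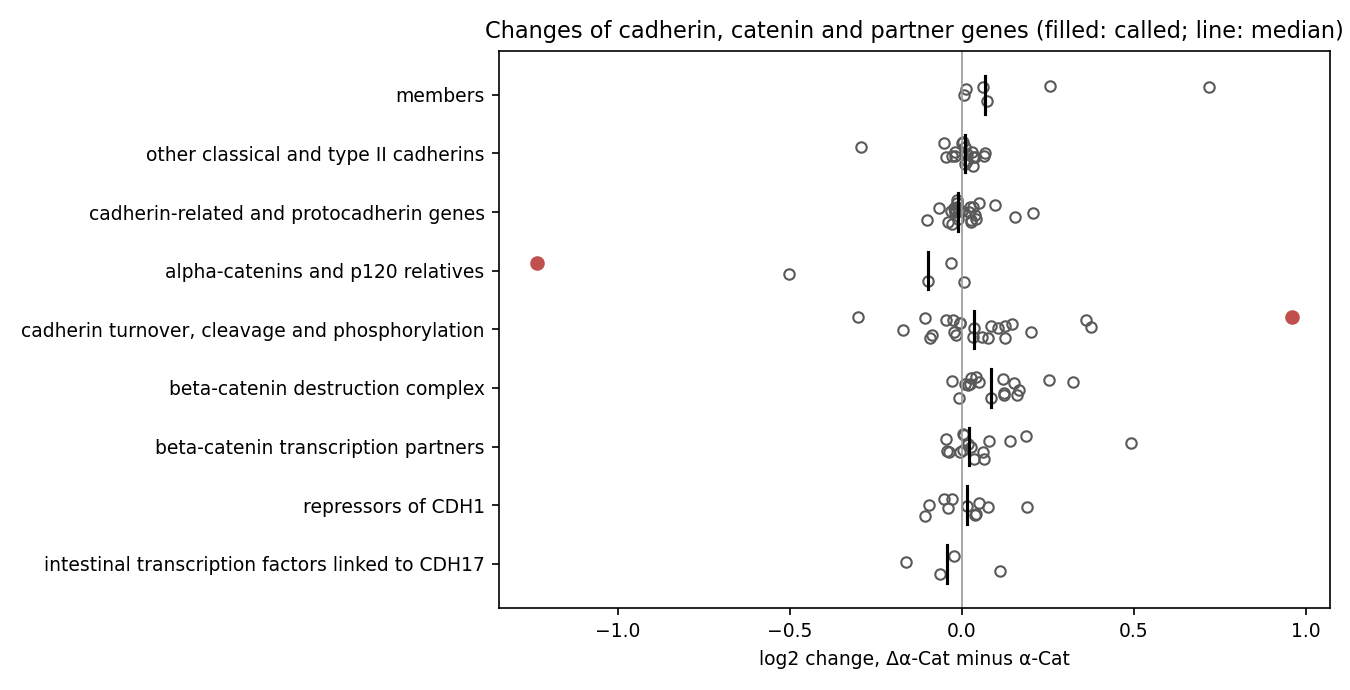
Log2 change (Δα-Cat minus α-Cat) of each measured gene, 1 row per list, with the members on top; filled points passed the test over all clusters and vertical lines are medians. The filled points are CTNNA1, at -1.23, and PTPRK, at 0.96; CDH17, at 0.72, is the open point furthest to the right.

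For the colon epithelial label 11 markers were read, all of which lay above 4.43 in at least 1 group. KRT8, an epithelial keratin, had the smallest p among them, with a change of 0.23 (SE 0.06, limma adjusted p = 0.274), and 0 of the 11 were called. An unadjusted p under 0.05 was found for 5 of the 11, against 13.1% of all genes. The change was positive in 5 of the 11 and negative in 6. Groups stood apart with Δα-Cat higher in 2 of the 11, against 11.3% of all genes, and lower in 3, against 10%. The latter were CLDN3, VIL1 and EPCAM, named after their values were seen, with changes of -0.35, -0.14 and -0.11. Of the markers of other cells, 4 of 9 for fibroblasts, 5 of 9 for leukocytes and 4 of 8 for endothelium lay above that level in at least 1 group. None of these 26 was called, and 1, CD14, had an unadjusted p under 0.05 (change -0.64, SE 0.12; limma adjusted p = 0.12, and 0.0409 with single-symbol clusters only). Mean log2 levels of the fibroblast list ran from 3.75 to 3.82 in Δα-Cat and from 3.76 to 3.77 in α-Cat. Those of the leukocyte list ran from 4.05 to 4.14 and from 4.13 to 4.19, and those of the endothelial list from 4.29 to 4.40 and from 4.38 to 4.44. LUM, a fibroblast matrix gene, lay at 2.16 and 2.04, and PLVAP, of endothelium, at 5.13 and 5.23. TYROBP, of leukocytes, lay at 6.49 in Δα-Cat and 6.43 in α-Cat, above GPA33 of colon epithelium at 5.09 and 5.02. Both were named after their values were seen. Lying above 4.43 thus did not by itself mark a cell type. The sample titles name DLD-1 cells and no other cell type, and a part of other cells in the cadherin values was not tested. In RNA of whole cultures, fewer cells that carry a message and less of it per cell cannot be told apart.

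The genes whose 6 values, centred on their own mean, lay closest to those of CDH1 were MACROH2A2, a histone variant gene, SESN2, a stress-response gene, and DOCK9, an exchange factor for a small GTPase. The root mean square difference over the 6 arrays was 0.0313, 0.0317 and 0.0347, where the CDH1 profile itself had a root mean square of 0.151. Their changes were 0.27, 0.26 and 0.22, and none was called (limma adjusted p = 0.237, 0.216 and 0.334). They were the closest among all 22376 genes over 6 arrays that share 1 normalization, which describes likeness in these arrays only.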

How the data were processed

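Total RNA of 3 Δα-Cat and 3 α-Cat samples was measured on Affymetrix arrays. The authors made the values with RMA in Affymetrix Expression Console, per the submitters' processing notes. Their versions and the genome build are not given in the sources used here. Each column of the deposited table is treated as a score: the scale is not stated and was taken to be log2, since rows with decimal points ran from 1.26 to 14.24. Array medians ran from 4.02 to 4.07. Of 70513 rows, 4987 held a value without a decimal point and were left out, and 65526 were tested. The 6 value columns of a second table match no sample label and were not used.

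Genes were named from the platform annotation, by single-symbol clusters, with the highest mean where a gene had several; each measured member had 1. limma 3.58.1 in R 4.3.3 (lmFit, eBayes) was fitted over all clusters with Benjamini-Hochberg adjustment, and tested on simulated data. Python 3.11.15, numpy 2.4.6, pandas 2.3.3, scipy 1.17.1 and matplotlib 3.10.9 did the rest. RefSeq tables (GRCh38.p14) gave gene order and promoters. The number of arrays limits precision.

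The text names all members, CTNNA1 and the 3 genes closest to CDH1 by centred profile. From each of 12 lists it names up to 3 called genes or the one with the smallest p. Outside this fall CDH2, CDX2, CTNNAL1, PKP4, PTPRM, RAB11A, CLDN3, VIL1, EPCAM, GPA33, TYROBP and the genes beside CDH17. So do FBXW11, TNKS, TNKS2, RNF146, DVL3, APC, AXIN1, AXIN2, GSK3A and GSK3B from the destruction complex list. The members and lists were chosen with earlier results of these data known. Residuals of same-numbered arrays of the 2 groups correlated at 0.219, 0.214 and 0.128, although no label explains the numbers. Differences by replicate number are therefore given as well. The main fit and the permutation tests did not pair the arrays. The fit with the replicate block was an alternative, beside other normalizations, variance models, filters and leaving out each array.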

Additional observations from a re-analysis of the deposited data

How the results depend on the processing

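With the replicate block no member was called either: the adjusted p of CDH17 was 0.059 and that of CDH1 0.21, 156 clusters were called, and no call of a gene named in the report was changed by it. The number of called clusters, 224 over all clusters, was 662 when only single-symbol clusters were tested, 483 with dim clusters left out, and between 29 and 120 with 1 array left out. The number of called members was 0, except with single-symbol clusters only, where it was 1, CDH17; no member was called with any array left out (0 to 0). These settings test fewer clusters or fewer arrays. The changes of CDH1, CDH17, CTNNB1 and JUP kept their sign in all 12 alternatives. With 1 array left out, CDH3 ranged from -0.017 to 0.073, CTNND2 from -0.036 to 0.0496 and the difference between the changes of CTNNB1 and JUP from -0.063 to 0.039, so these have no settled direction. The adjusted p over the alternatives ran from 0.124 to 0.614 for CDH1 and from 0.0355 to 0.322 for CDH17. No measured member had a second cluster, so the mean over clusters gave no other value. With 3 arrays a group, small changes may have been missed. The 95% intervals are not adjusted for the number of clusters and set no limit of detection. Those of CDH1 and CDH17 lay above 0, although neither gene was called over all clusters.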

Other observations

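The genes that flank the members in the RefSeq order were read as well, 5 measured protein-coding genes on each side, with names given after their values were seen. Next to CDH17 on chromosome 8 lies GEM, which encodes a small GTP-binding protein of the RGK family, known for restraining calcium channels. Its log2 level was 8.16, 8.32 and 8.06 in Δα-Cat and 7.31, 7.33 and 7.31 in α-Cat, with groups far apart. GEM rose by 0.86 (SE 0.07, limma adjusted p = 0.0112), or 1.82-fold. Its adjusted p was 0.0827, 0.0574 and 0.0767 without α-Cat replicates 1, 2 and 3, and it ran from 0.00273 to 0.0827 over the alternatives. PDP1, the gene on the other side of CDH17, encodes a phosphatase of the pyruvate dehydrogenase complex; it read 7.12, 7.22 and 7.45 in Δα-Cat and 6.95, 6.95 and 7.02 in α-Cat (change 0.29, SE 0.09, limma adjusted p = 0.338).

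Of the 10 neighbours of CDH17, GEM was the only one called, where 0.626% of all genes were called. A positive change was found in 8 of the 10, and in 11142 of all 22376 genes. The median of the 10 was 0.11, with a range from -0.09 to 0.86. Around CDH3 and CDH1, 0 of 10 neighbours were called, 3 had a positive change, and changes ran from -0.29 to 0.19. The 10 neighbours of CTNNB1 ran from -0.07 to 0.18 and those of JUP from -0.05 to 0.14, with 0 called at either place.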
